A study of Mus musculus with 36 samples.

Results

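The 30 genes described here act in cholesterol synthesis and in sterol handling and were taken by symbol from the 20098 genes listed for every library. They comprise 6 regulators of the pathway (Srebf2, Scap, Mbtps1, Mbtps2, Insig1 and Insig2), 7 enzymes from acetyl-CoA to farnesyl pyrophosphate (Acat2, Hmgcs1, Mvk, Pmvk, Mvd, Idi1 and Fdps), 11 enzymes from squalene to cholesterol (Fdft1, Sqle, Lss, Cyp51, Tm7sf2, Msmo1, Nsdhl, Hsd17b7, Ebp, Sc5d and Dhcr7), and 6 genes of sterol transport, efflux and esterification (Stard4, Abcg5, Abcg8, Soat1, Soat2 and Npc1). Their level was measured by RNA sequencing, as FPKM, the number of fragments of a gene scaled to the length of its transcript and to the size of the library, in lung and liver of male C57BL/6J mice in 3 metabolic states. ND mice ate a diet with 16% of its energy from fat, DIO mice (diet-induced obesity) a diet with 45%, and T1D mice (type 1 diabetes) received 50 mg/kg of streptozotocin, a toxin of the insulin-producing beta cells, on 5 days and ate the 16% diet. Within each state the control groups (NDC, DIOC, T1DC) breathed filtered air and the exposed groups (NDE, DIOE, T1DE) breathed unfiltered ambient air carrying fine particulate matter (PM) for 4 weeks, from an age of 14 weeks. Each tissue has 6 groups of 3 libraries, 18 in all, so that NDC1 stands for replicate 1 of NDC. All animals were wild-type males of a single strain. The diet and the fat mass of the DIO mice cannot be told apart, and neither can the loss of insulin and the injections of the T1D mice.

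Cells make cholesterol when the membrane of the endoplasmic reticulum runs low in sterol. The transcription factor SREBP2 (gene Srebf2) is then escorted by SCAP to the Golgi, where the proteases encoded by Mbtps1 and Mbtps2 cut it free to enter the nucleus and raise the enzymes of the pathway, whereas INSIG1 and INSIG2 hold SCAP back when sterol is plentiful. Insig1 is itself a target of SREBP, and a liver transcript of Insig2 is known in rodents to be lowered by insulin. The liver is a main site of cholesterol synthesis and the route by which sterol leaves the body in bile, through the paired half-transporters ABCG5 and ABCG8.

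The tissue labels were checked against marker genes. The summed level of 10 hepatocyte markers was between 52490 and 87981 FPKM in every liver library, and 9 of 10 muscle markers were under 1 FPKM in all of them. The summed level of 8 alveolar type 2 markers was between 15939 and 30117 FPKM in every lung library, whereas hepatocyte markers summed to between 5.19 FPKM (DIOE2) and 726 FPKM (DIOC3) there. Markers of other tissues were uneven among the lung libraries. Those of squamous epithelium summed to between 1.09 FPKM (NDC1) and 3009 FPKM (DIOC2), those of muscle to between 9.77 (DIOC3) and 1614 (DIOE1) and those of adipocytes to between 47.7 (T1DE1) and 2696 (T1DE2). Fewer cells of a type and less RNA per cell cannot be told apart in such bulk samples. The labels do not say that the replicates of a group came from separate animals, so p-values measure the spread between these libraries. Read counts were not used here, and from the spacing of low FPKM values the depth was estimated at 16450000 to 19000000 reads in liver libraries and 15100000 to 19600000 in lung libraries, taking full transcript lengths. That spacing was only partly resolved, and taking 100 bases off each length gave up to 22000000 reads.

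In ND mice breathing filtered air, liver and lung expressed this pathway with a different emphasis. Liver had more of Insig2, of the sterol exporters and of 4 of the 11 late enzymes (Tm7sf2, Sc5d, Hsd17b7 and Ebp), whereas lung had more of the transcription factor gene Srebf2, of the protease gene Mbtps1 and of Soat1. The protease gene Mbtps2 and the late enzymes Sqle and Lss were also called higher in lung, but those calls depended on the scaling. The highest mean levels of NDC liver were those of Insig2 (127 ± 3.24 FPKM, SD, n = 3), of Sc5d (83.1 ± 9.07), a late desaturase, of Ebp (82.6 ± 17.1), a sterol isomerase, and of Tm7sf2 (63.6 ± 7.83), a sterol reductase. The levels of Sc5d and Ebp lay within each other's spread. The lowest were Soat1 (0.93 ± 0.14), a cholesterol-esterifying enzyme, Mbtps2 (2.15 ± 0.22) and the decarboxylase Mvd (2.66 ± 1.3). In NDC lung the highest were Insig1 (48.0 ± 2.11), Fdps (43.0 ± 8.22), the synthase of farnesyl pyrophosphate, Srebf2 (42.9 ± 1.68) and Hmgcs1 (41.1 ± 4.13), which makes HMG-CoA. Of these 4 Insig1 was above every library of Srebf2 and Hmgcs1, whereas Fdps overlapped the others. FPKM is scaled by transcript length, so these are levels that can be set beside each other.

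In a fit of all 36 libraries with limma, 18 of the 30 members differed between NDC lung and NDC liver by the rule used for every call here, a fold of FPKM + 1 over 1.5 with a Benjamini-Hochberg adjusted p under 0.05. Of these 9 were higher and 9 lower in lung, against 68% of 14384 tested genes called higher in lung and 11.1% called lower. The median log2 fold change (lung over liver) was -0.11 for the members and 1.08 for all genes tested. 

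Among the genes higher in lung, Srebf2 was at 41.5, 42.5 and 44.8 FPKM in NDC lung and at 8.34, 12.6 and 10.9 in NDC liver (log2 fold change 1.94 ± 0.14, limma adjusted p = 6.01e-13). Soat1 was at 17.5, 14.8 and 17.5 FPKM in lung and at 1.07, 0.92 and 0.8 in liver (3.19 ± 0.13, limma adjusted p = 4.46e-19). Both genes were several times higher in every lung library than in any liver library. Mbtps1, which makes the first cut in SREBP2, was at 36.1, 34.4 and 37.4 FPKM in lung against 12.6, 12.3 and 11.1 in liver (1.51 ± 0.07). Mbtps2, which makes the second, was at 5.19, 4.89 and 5.27 FPKM against 1.98, 2.4 and 2.06 (0.96 ± 0.10). Mvd was at 9.81, 9.23 and 11.6 FPKM against 1.6, 4.12 and 2.27 (1.67 ± 0.18). The tissues were apart in all 3 genes. The share of all genes apart in this way between the tissues was not counted. Pmvk (1.65), Sqle (0.98), Lss (0.78) and Mvk (0.65) were also called higher in lung, with log2 fold changes in brackets.

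Of the genes higher in liver, Abcg5 was at 33.4, 32.8 and 26.0 FPKM in NDC liver and at 0.11, 0.21 and 0.11 in NDC lung (log2 fold change, lung over liver, -4.79 ± 0.18). Abcg8 was at 30.7, 29.0 and 25.9 FPKM in liver and at 0.12, 0.03 and 0.1 in lung (-4.77 ± 0.18). With lung levels this near 0 the size of both folds is set by the pseudocount, and over the alternatives it lay from -7.00 to -4.73 for Abcg5 and from -7.32 to -4.71 for Abcg8. Over all 18 lung libraries Abcg5 lay at 0.02 to 0.32 FPKM and Abcg8 at 0 to 0.27 FPKM, both under the filter of 1 FPKM in 3 libraries, so that only 28 members were tested within lung. Tm7sf2 was at 56.4, 71.9 and 62.3 FPKM in liver and 3.35, 2.78 and 3.92 in lung (-3.89 ± 0.29). Insig2 was at 128, 129.5 and 123 FPKM in liver and 21.7, 18.5 and 16.5 in lung (-2.69 ± 0.21). Of the 30 genes these 4 had the lowest ratios of lung to liver. Sc5d was at 75.7, 93.2 and 80.3 FPKM against 21.3, 18.5 and 18.1 in lung (-2.05 ± 0.15). Hsd17b7, a sterol 3-ketoreductase, was at 15.5, 23.3 and 23.7 FPKM against 4.99, 4.42 and 3.63 (-2.02 ± 0.20). Ebp was at 77.3, 101.7 and 68.7 FPKM against 21.3, 22.5 and 27.0 (-1.75 ± 0.12). Each of these 3 was lower in every lung library, as were Soat2 (-1.96) and Scap (-0.75). Median-ratio scaling, which moves the median log2 fold change of all genes by -0.78 here, changed the split to 5 higher and 18 lower and turned Mvk to -0.19, so the direction of the smaller differences depends on the scaling. With either scaling, the calls of Srebf2, Mbtps1, Pmvk, Mvd and Soat1 as higher in lung were made, whereas those of Mbtps2, Sqle and Lss were lost with median-ratio scaling.

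**Figure D1:**
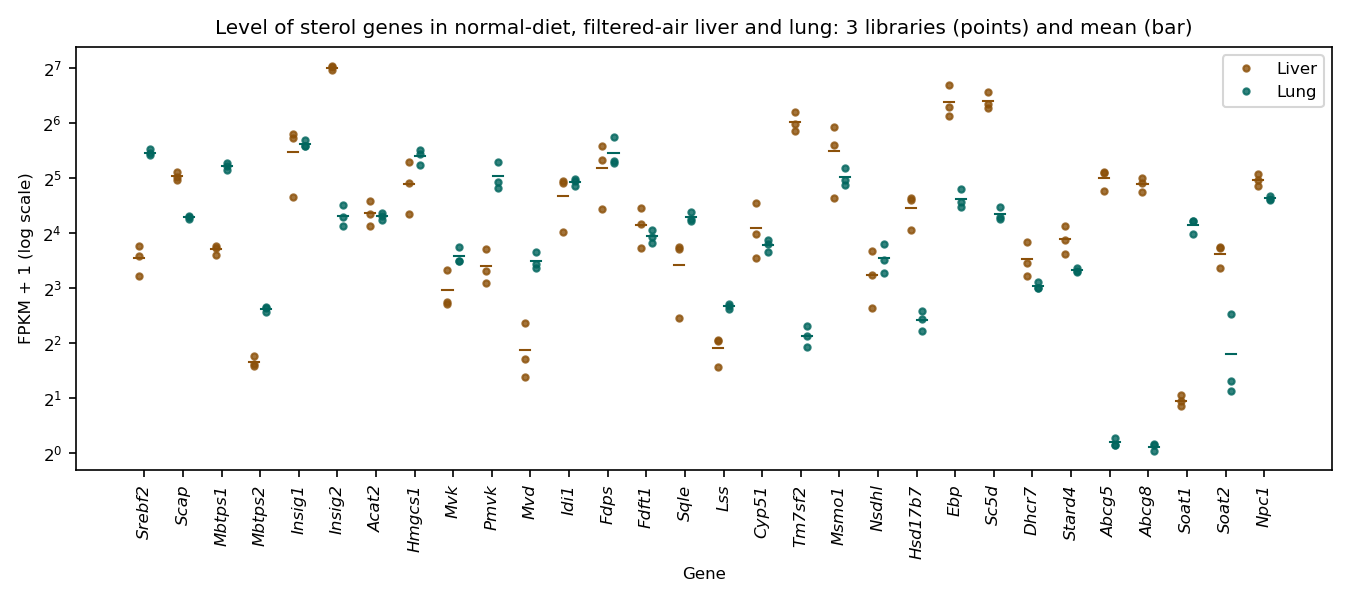
Level of each of the 30 genes in the 3 liver and 3 lung libraries of ND mice in filtered air, as FPKM + 1 on a log axis, with each point a library and each short line the mean of 3. Srebf2 and Soat1 sit higher in lung, and Insig2, Tm7sf2, Abcg5 and Abcg8 sit higher in liver, with no overlap between the tissues.

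For 24 of the 30 members the RefSeq table (GRCm38.p6) held a window at 1 or more gene starts, and the 250 bases before each start were searched on both strands for 3 short motifs, none of which contains another. The letters CCAAT, bound by the factor NF-Y that works beside SREBP2, were found in 19 of 24 members and in 14 of the 15 synthesis enzymes with a window, against 37.5% of 27025 genes. The letters TCACNCCAC, a form of the sterol regulatory element, were found in 1 member, Hmgcs1, against 1.22% of genes, and CACGTG, an E-box, in 5 members (Scap, Insig1, Hsd17b7, Sc5d and Dhcr7), against 6.86% of genes. A match is a description of the letters and not a shown binding site. Windows are printed for Hmgcs1 because it held the regulatory element, for Idi1, Msmo1 and Cyp51 because their levels moved together in liver, and for Insig2 because it moved the other way. They lie at chr13:119690101-119690350 (plus strand), chr13:8885356-8885605 (plus), chr8:64733579-64733828 (minus), chr5:4104698-4104947 (minus) and chr1:121332590-121332839 (minus, the most upstream of 3 starts of Insig2). The Insig2 window reaches into the annotated span of the gene, and 2 of its 3 CCAAT matches lie in that stretch. Capitals mark CCAAT on either strand and, in Hmgcs1, also the regulatory element.
Hmgcs1: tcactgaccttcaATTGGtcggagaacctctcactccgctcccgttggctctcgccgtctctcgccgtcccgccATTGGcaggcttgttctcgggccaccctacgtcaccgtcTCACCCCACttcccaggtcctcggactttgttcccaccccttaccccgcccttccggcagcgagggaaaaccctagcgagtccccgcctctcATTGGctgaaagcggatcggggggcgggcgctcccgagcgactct
Idi1: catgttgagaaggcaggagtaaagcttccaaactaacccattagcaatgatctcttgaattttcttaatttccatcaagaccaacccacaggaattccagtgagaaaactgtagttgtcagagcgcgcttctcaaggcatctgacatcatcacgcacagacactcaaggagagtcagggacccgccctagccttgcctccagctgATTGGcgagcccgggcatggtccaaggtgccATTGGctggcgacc
Msmo1: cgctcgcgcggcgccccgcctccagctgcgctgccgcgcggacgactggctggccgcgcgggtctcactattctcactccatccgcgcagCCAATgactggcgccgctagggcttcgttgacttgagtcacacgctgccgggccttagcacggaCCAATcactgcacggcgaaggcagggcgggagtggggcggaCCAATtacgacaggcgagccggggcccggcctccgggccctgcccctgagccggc
Cyp51: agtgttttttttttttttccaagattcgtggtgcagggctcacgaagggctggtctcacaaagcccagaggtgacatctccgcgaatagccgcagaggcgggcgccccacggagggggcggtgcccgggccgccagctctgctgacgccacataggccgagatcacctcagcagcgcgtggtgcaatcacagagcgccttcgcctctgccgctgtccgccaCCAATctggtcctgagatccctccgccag
Insig2: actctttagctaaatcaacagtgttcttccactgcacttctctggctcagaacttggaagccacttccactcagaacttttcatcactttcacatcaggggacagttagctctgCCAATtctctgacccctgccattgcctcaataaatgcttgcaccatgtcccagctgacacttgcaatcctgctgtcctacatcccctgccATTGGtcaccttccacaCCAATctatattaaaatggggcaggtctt

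The comparison of DIO with ND mice in filtered air asks how the pathway differed with the high-fat diet state in the absence of particulate exposure. In liver the pathway was lower in DIOC than in NDC: 10 of the 18 synthesis enzymes fell, Insig1 and the sterol carrier Stard4 fell, and Insig2 rose. All 18 synthesis enzymes had a negative log2 fold change, with a median of -1.04, against -0.01 for all 10806 genes tested. Their summed level was 381, 588 and 486 FPKM in NDC and 221, 282 and 261 FPKM in DIOC, so that the groups did not overlap. With limma 12 members were called lower and 1 higher of the 30, whereas 0.842% of all genes tested were called lower and 0.666% higher.

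Of the early enzymes, Idi1, which converts isopentenyl pyrophosphate to its isomer (chr13:8885606-8892396), fell most. It was at 15.2, 29.8 and 28.9 FPKM in NDC and at 2.22, 3.36 and 3.84 FPKM in DIOC, with no overlap, a log2 fold change of -2.59 ± 0.29 (SE), or 6.03-fold (limma adjusted p = 0.000854). Fdps was at 20.7, 46.5 and 39.1 FPKM in NDC and at 9.52, 12.1 and 9.51 in DIOC (log2 fold change -1.61 ± 0.35, limma adjusted p = 0.0265). For this gene too the highest DIOC library lay under the lowest of NDC, by less than the distance between the NDC libraries themselves. Mvk, mevalonate kinase, went from 5.49, 9.03 and 5.72 FPKM to 2.04, 2.35 and 2.26 FPKM (-1.24 ± 0.19, limma adjusted p = 0.00232). Mvd, the decarboxylase that yields isopentenyl pyrophosphate, went from 1.6, 4.12 and 2.27 FPKM to 0.67, 0.64 and 0.44 FPKM (-1.15 ± 0.20, limma adjusted p = 0.00679). Acat2, a cytosolic thiolase that joins acetyl-CoA units, went from 19.2, 22.8 and 16.4 FPKM to 11.5, 13.4 and 12.3 FPKM (-0.60 ± 0.13, limma adjusted p = 0.0228). None of these 3 genes overlapped between the groups. The share of all genes apart in this way was not counted, here or in later comparisons of 3 libraries with 3. Acat2 has a near-identical neighbour, Acat3, at 95.9, 98.2 and 68.0 FPKM in NDC and 46.7, 56.1 and 52.2 in DIOC, and how fragments were split between the pair is uncertain. The other early enzymes, Pmvk (-0.41 ± 0.21) and Hmgcs1 (-0.43 ± 0.29), did not pass the test, and Hmgcs1 overlapped between the groups.

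Among the late enzymes, Msmo1, the sterol C4-methyl oxidase (chr8:64718123-64733578), was at 23.9, 59.7 and 47.3 FPKM in NDC and at 5.9, 4.68 and 7.64 FPKM in DIOC (log2 fold change -2.58 ± 0.34, 6.00-fold, limma adjusted p = 0.00103). Sqle, squalene epoxidase and a flux-controlling step, was at 4.45, 12.1 and 12.4 FPKM in NDC and near the 1 FPKM floor at 0.82, 1.18 and 0.9 in DIOC (-2.33 ± 0.44, 5.01-fold, limma adjusted p = 0.0107). Cyp51, lanosterol demethylase, went from 10.7, 14.8 and 22.3 FPKM to 3.02, 4.05 and 3.4 FPKM (-1.86 ± 0.30, limma adjusted p = 0.00384). In each of these 3 genes every NDC library was above every DIOC library, although NDC1 was the lowest NDC library in 16 of the 18 enzymes. Tm7sf2 went from 56.4, 71.9 and 62.3 FPKM to 16.6, 31.9 and 22.5 FPKM (-1.43 ± 0.33, limma adjusted p = 0.0359), and Nsdhl, a sterol dehydrogenase, fell by 1.38 ± 0.32 on the log2 scale (limma adjusted p = 0.0362). The remaining late enzymes did not pass: Fdft1, squalene synthase, had the nearest value (-0.93 ± 0.24, limma adjusted p = 0.0529), followed by Sc5d (-0.61), Lss (-0.50), Dhcr7 (-0.47), Hsd17b7 (-0.28) and Ebp (-0.15).

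The regulators were divided. Insig1 (chr5:28071412-28078662) was at 24.0, 54.3 and 51.8 FPKM in NDC and at 8.99, 11.4 and 10.1 FPKM in DIOC (log2 fold change -1.91 ± 0.32, 3.76-fold, limma adjusted p = 0.00389). Insig2 (chr1:121304353-121332662) went the other way, from 128, 129.5 and 123 FPKM to 308, 279.5 and 370.2 FPKM (1.31 ± 0.27, 2.49-fold, limma adjusted p = 0.0162). The 2 paralogues thus changed in opposite directions, each with no overlap between groups. Srebf2 (-0.49 ± 0.17), Scap (-0.24 ± 0.12), Mbtps1 (0.20 ± 0.08) and Mbtps2 (0.11 ± 0.11) did not pass the test.

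Of the handling genes only Stard4, a soluble protein that carries sterol between membranes, was called. It was at 11.2, 16.4 and 13.5 FPKM in NDC and at 1.45, 3.46 and 2.51 FPKM in DIOC (log2 fold change -2.11 ± 0.29, 4.32-fold, limma adjusted p = 0.00149). The other 5 had values near 0: Abcg5 -0.04, Abcg8 -0.07, the esterifying enzymes Soat1 0.02 and Soat2 0.10, and Npc1, the exporter of lysosomal cholesterol, 0.07. Leaving out NDC2 reduced the 13 calls to 7, and leaving out DIOC1 or DIOC3 reduced them to 8 each. The calls of Insig1, Mvk, Mvd, Idi1, Cyp51, Msmo1 and Stard4 held under all 11 alternative settings.

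**Figure D2:**
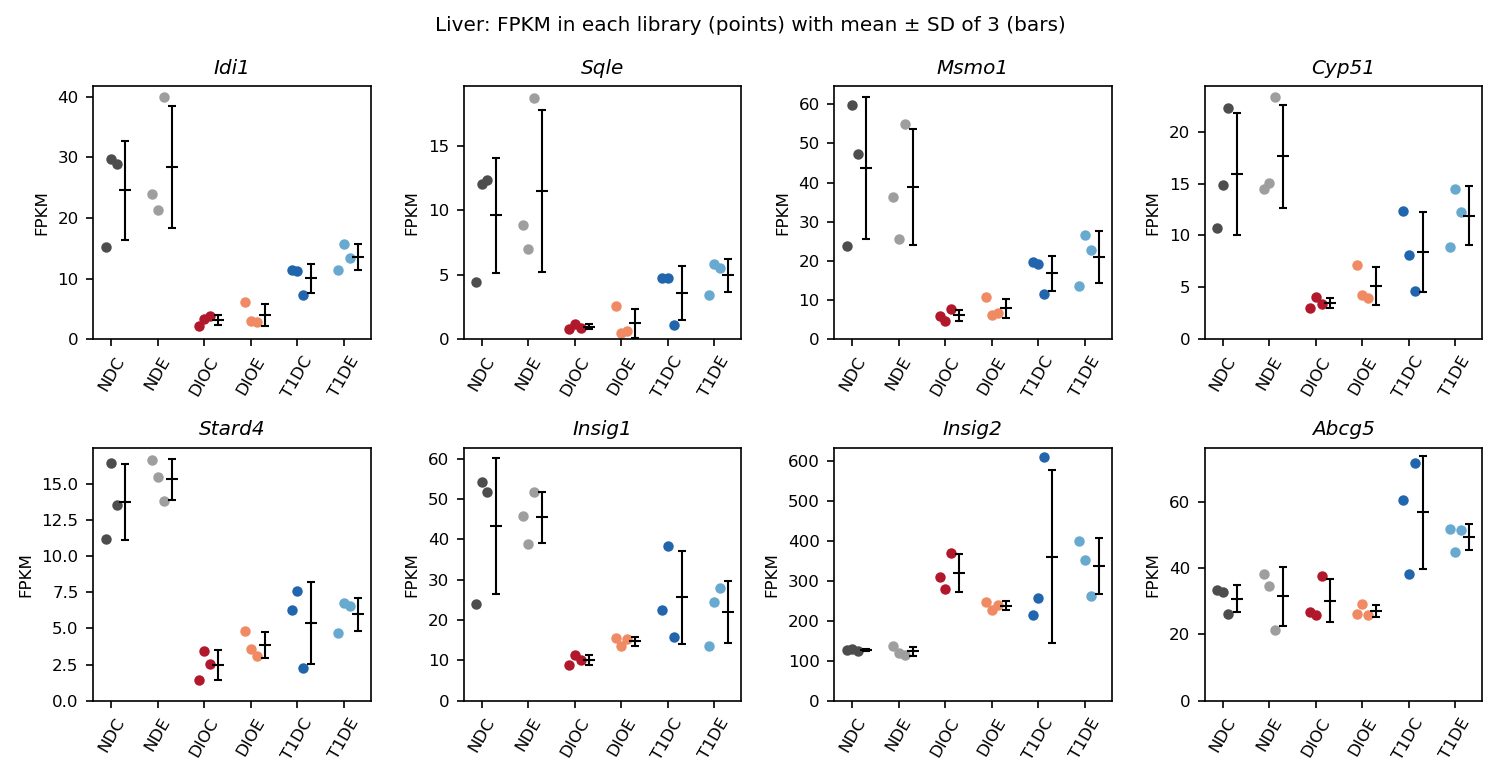
FPKM of 8 genes in the 18 liver libraries by group, with each point a library and the bars showing the mean ± SD of 3. Idi1, Sqle, Msmo1, Cyp51, Stard4 and Insig1 are low in all DIO libraries, Insig2 is high in all DIO and T1D libraries against ND, and Abcg5 is highest in T1D.

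Under PM the same contrast was measured in other libraries, DIOE against NDE, none of which belongs to the pair above. In liver 12 members were called lower and 0 higher, against 0.666% and 0.333% of all genes tested, and 1 member, Insig2, was higher at an unadjusted p under 0.05 (1.95% of all genes). The fall covered 10 synthesis enzymes, Insig1 and Stard4. All 18 synthesis enzymes were negative, with a median log2 fold change of -1.06 against -0.12 for all genes. The summed enzymes were at 492, 450.4 and 628 FPKM in NDE and 330.4, 285 and 266 FPKM in DIOE, without overlap. The 10 members called in both airs were Insig1, Mvk, Mvd, Idi1, Fdps, Sqle, Cyp51, Msmo1, Nsdhl and Stard4, or 76.9% of the 13 called in filtered air and 83.3% of the 12 called under PM. How many of all genes tested were called in both airs was not counted. Both comparisons also share an estimate of spread from the 18 liver libraries.

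Idi1 was at 24.0, 21.4 and 39.9 FPKM in NDE and at 6.13, 3.04 and 2.82 in DIOE (log2 fold change -2.57 ± 0.29, limma adjusted p = 0.000537). Mvk was at 5, 5.01 and 8.29 FPKM against 2.56, 2.12 and 2.48 (-1.04 ± 0.19, limma adjusted p = 0.0118). Mvd was at 3.21, 1.85 and 3.49 FPKM against 0.81, 0.73 and 0.81 (-1.08 ± 0.20, limma adjusted p = 0.0152). These 3 early enzymes were lower in every DIOE library than in any NDE library, and the share of all genes that were so was not counted. Fdps was at 32.8, 29.7 and 55.7 FPKM against 14.1, 10.2 and 8.7 (-1.72 ± 0.35, limma adjusted p = 0.0225).

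Msmo1 was at 36.3, 25.5 and 54.9 FPKM in NDE against 10.7, 6.25 and 6.74 in DIOE (log2 fold change -2.13 ± 0.34, limma adjusted p = 0.00601). Sqle was at 8.86, 7.04 and 18.7 FPKM against 2.55, 0.46 and 0.67 (-2.50 ± 0.44, 5.65-fold, limma adjusted p = 0.00926). Cyp51 was at 14.4, 15.02 and 23.4 FPKM against 7.19, 4.22 and 3.99 (-1.61 ± 0.30, limma adjusted p = 0.015). In all 3 genes NDE3 was the highest NDE library and DIOE1 the highest DIOE library, and the groups stayed apart. Nsdhl was at 9.72, 8.58 and 13.6 FPKM against 3.64, 2.14 and 2.23 (-1.66 ± 0.32, limma adjusted p = 0.0171). Fdft1 was at 18.8, 15.4 and 23.5 FPKM against 7.42, 7.89 and 7.42 (-1.22 ± 0.24, limma adjusted p = 0.0175). Lss was at 2.76, 2.15 and 4.47 FPKM against 1.34, 1.19 and 1.53 (-0.77 ± 0.18, limma adjusted p = 0.0392). Fdft1 and Lss, both called under PM, had missed the threshold in filtered air, and that difference in call is no test of a difference in size.

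Insig1 was at 45.7, 39.0 and 51.7 FPKM in NDE against 15.6, 13.5 and 15.2 in DIOE (log2 fold change -1.55 ± 0.32, limma adjusted p = 0.0215), and Stard4 was at 16.6, 15.5 and 13.8 FPKM against 4.81, 3.59 and 3.07 (-1.77 ± 0.29, limma adjusted p = 0.00709). Insig2 stood at 137, 120.3 and 115 FPKM in NDE and at 247, 227 and 239 in DIOE, apart in every library, but did not pass the test (0.94 ± 0.27, limma adjusted p = 0.0966). Taking the 6 DIO livers of both airs against the 6 ND livers, 15 members were lower in every DIO library (3.35% of all genes tested did so) and 1, Insig2, was higher in every DIO library (1.14%). The 15 were Insig1, Acat2, Mvk, Mvd, Idi1, Fdps, Fdft1, Sqle, Lss, Cyp51, Tm7sf2, Msmo1, Nsdhl, Dhcr7 and Stard4. Leaving out a single library reduced the 12 calls to 3 (DIOE2), 4 (NDE3) or 6 (DIOE3 or NDE1), and Idi1, Msmo1 and Stard4 held under all 11 alternatives.

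Other measurements moved with the DIO state in these livers. Of 12 circadian clock genes, 1 was called higher and 6 lower in DIOC against NDC. Dbp, a clock output gene, went from 45.3, 55.8 and 44.9 FPKM to 0.71, 1.04 and 1.61 FPKM (log2 fold change -4.57), and Arntl, a core clock activator, rose by 1.99. Under PM 3 clock genes were called higher and 5 lower. The sources used here do not state the hour of tissue collection, and the part of the clock genes in the sterol result was not tested. The 6 neutrophil markers summed to 7.02 to 9.91 FPKM in NDC, 21.1 to 56.1 in DIOC, 8.6 to 10.1 in NDE and 5.59 to 24.2 in DIOE. In DIOC most of the sum was S100a8 (24.9, 7.94 and 25.4 FPKM, against 0.73, 1.78 and 2.79 in NDC) and S100a9. Retnlg and Mmp8 were apart from NDC at low levels. Ly6g overlapped, at 3.04, 4.65 and 2.45 FPKM in NDC and 3.61, 3.09 and 4.43 in DIOC, as did Cxcr2. The part of these markers was not tested either. The 6 genes listed as brown adipocyte markers, among them Elovl3 and Ppargc1a, summed to 84.9 to 126 FPKM in NDC and 209 to 381 in DIOC. Under PM they summed to 108.5 to 162 FPKM in NDE and 257 to 575 in DIOE. Of the 4 tested, 0 were called in either comparison. Whether this sum marks brown fat in liver was not tested, and neither was the part of these genes. The 7 general adipocyte markers overlapped, at 22.7 to 46.3 FPKM in NDC and 28.4 to 50.9 in DIOC. Under PM they were at 11.9 to 65.1 FPKM in NDE and 13.5 to 29.5 in DIOE. Hepatocyte markers overlapped between the groups, at 61122 to 73429 FPKM in DIOC and 66271 to 87981 in NDC.

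**Figure D3:**
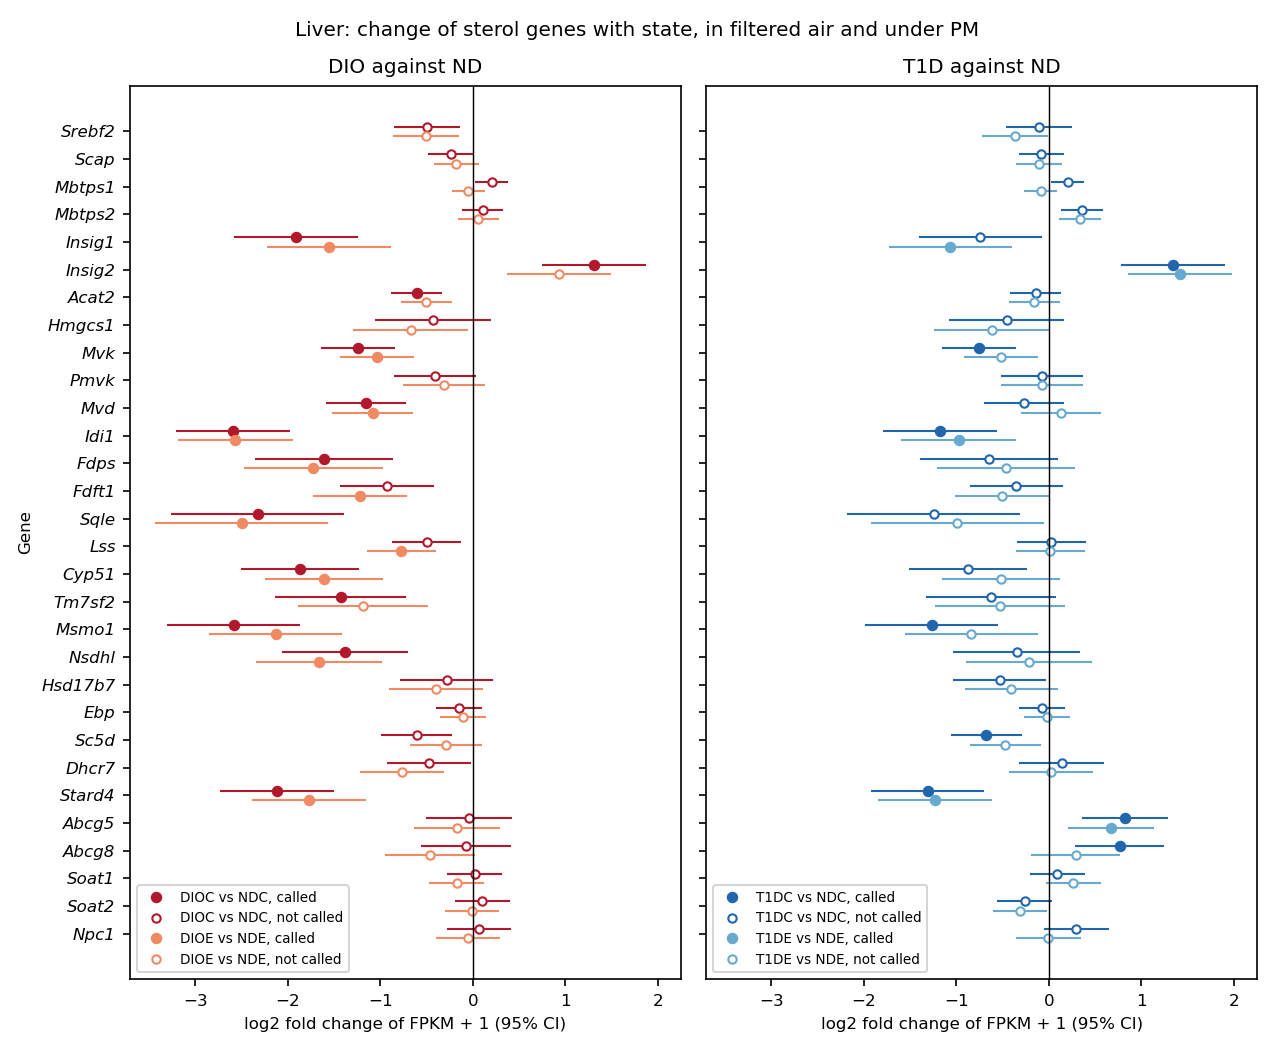
Log2 fold change of FPKM + 1 with its 95% confidence interval for the 30 genes in liver, DIO against ND (left) and T1D against ND (right), each in filtered air and under PM, with filled points for called genes. In DIO the 18 synthesis enzymes lie left of 0 in both airs, whereas in T1D Insig2 and Abcg5 lie right of 0 and fewer enzymes are called.

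Fewer members were called in T1D livers, and they were other genes in part. In T1DC against NDC, Insig2, Abcg5 and Abcg8 rose, and Idi1, Mvk, Msmo1, Sc5d and Stard4 fell. These are 3 members called higher and 5 called lower, where 4.39% of all genes tested were called higher and 0.824% lower. The median log2 fold change was -0.26 for the members and 0.16 for all genes, and -0.49 for the synthesis enzymes, of which 16 of 18 were negative.

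Insig2 was at 128, 129.5 and 123 FPKM in NDC and at 215, 256 and 608 FPKM in T1DC (log2 fold change 1.34 ± 0.27, limma adjusted p = 0.00629). Abcg5 (chr17:84658174-84683011) was at 33.4, 32.8 and 26.0 FPKM in NDC and 60.5, 38.3 and 71.5 FPKM in T1DC (0.83 ± 0.22, limma adjusted p = 0.0246). Abcg8 (chr17:84676302-84700333) was at 30.7, 29.0 and 25.9 FPKM against 59.4, 31.1 and 64.0 (0.77 ± 0.23, limma adjusted p = 0.0388). The exporters were higher in each T1DC library than in any NDC library, with T1DC2 close to the ND livers for both. The 2 exporter genes overlap each other in the annotation, and strand use in counting is not given, so reads of the overlap may count for either.

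Stard4 fell from 11.2, 16.4 and 13.5 FPKM in NDC to 6.29, 7.6 and 2.23 FPKM in T1DC (log2 fold change -1.31 ± 0.29, limma adjusted p = 0.0108). Idi1 fell from 15.2, 29.8 and 28.9 FPKM to 11.5, 11.3 and 7.34 FPKM (-1.18 ± 0.29, limma adjusted p = 0.0186). Mvk fell from 5.49, 9.03 and 5.72 FPKM to 3.97, 4.06 and 2.63 FPKM (-0.75 ± 0.19, limma adjusted p = 0.0192). T1DC3 had the lowest level in each of these 3 genes and was the lowest of its group in 16 of the 18 enzymes. Msmo1 fell from 23.9, 59.7 and 47.3 FPKM to 19.6, 19.1 and 11.7 FPKM (-1.27 ± 0.34, limma adjusted p = 0.0257). Sc5d fell from 75.7, 93.2 and 80.3 FPKM to 67.8, 55.4 and 36.3 FPKM (-0.67 ± 0.18, limma adjusted p = 0.0272). Mbtps2 passed on adjusted p but not on fold (0.36 ± 0.11, limma adjusted p = 0.0369). The 8 calls became 2 without T1DC3, 3 without NDC3 and 4 without NDC2, and none of the 8 held under all 11 alternatives. Median-ratio scaling, which moves the median of all genes by -0.15 in this comparison, changed the split from 3 higher and 5 lower to 1 higher, Insig2, and 5 lower.

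Under PM, T1DE against NDE gave 2 members called higher, Insig2 and Abcg5, and 3 called lower, Stard4, Insig1 and Idi1, against 8.25% and 1.26% of all genes tested. Insig2 was at 137, 120.3 and 115 FPKM in NDE and at 399, 351 and 261 FPKM in T1DE (log2 fold change 1.42 ± 0.27, limma adjusted p = 0.00195). Abcg5 was at 38.3, 34.5 and 21.4 FPKM against 51.8, 44.8 and 51.4 (0.67 ± 0.22, limma adjusted p = 0.0314). Both were higher in every T1DE library than in any NDE library, but how many of all genes were so was not counted. The share of members called higher was not above that of all genes. With median-ratio scaling the call of Abcg5 was lost. Stard4 was at 16.6, 15.5 and 13.8 FPKM against 4.67, 6.75 and 6.52 (-1.23 ± 0.29, limma adjusted p = 0.00683). Insig1 was at 45.7, 39.0 and 51.7 FPKM against 13.5, 24.5 and 28.1 (-1.06 ± 0.32, limma adjusted p = 0.0207). Idi1 was at 24.0, 21.4 and 39.9 FPKM against 11.4, 15.8 and 13.5 (-0.98 ± 0.29, limma adjusted p = 0.0219).

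The 4 members called in both airs were Insig2, Idi1, Stard4 and Abcg5, 50% of the 8 in filtered air and 80% of the 5 under PM. No share of all genes called in both airs was counted here either. The calls in T1DE fell to 2 without T1DE1 or NDE3 and to 3 without T1DE3, whereas median-ratio scaling, with a shift of -0.22 in the median of all genes, gave 1 higher and 7 lower. Insig2 and Stard4 held under all 11 alternatives. Over both airs, Mvk, Sc5d and Stard4 were lower in all 6 T1D livers than in the 6 ND livers (0.935% of all genes tested did so), and Mbtps2 and Insig2 were higher (13.3%).

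Clock genes moved in T1D livers as well, with 3 of 12 called higher and 2 lower in each air. Dbp was at 24.3, 4.16 and 2.3 FPKM in T1DC, and T1DC3 had the lowest Dbp and the highest Insig2 of that group. In DIO livers Dbp was at 0.71, 1.04 and 1.61 FPKM in DIOC and 1.1, 1.35 and 1.02 in DIOE. Insig2 lay at 227 to 370 FPKM in the DIO livers and at 215 to 608 FPKM in the T1D livers of both airs, so the ranges overlapped. Hepatocyte markers summed to 52490 to 61749 FPKM in T1DC and 52575 to 61816 in T1DE, below the 66271 to 87981 of NDC. The genes listed as brown adipocyte markers summed to 15.3 to 146 FPKM in T1DC and 22.2 to 68.6 in T1DE. In T1DE 5 macrophage markers were called higher against NDE, among them Adgre1 (log2 fold change 1.15). The part of these in the sterol results was not tested.

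The direct comparison of T1D with DIO livers asks whether the states differ from each other. In filtered air 8 members were called higher in T1DC than in DIOC and 0 lower, against 5.74% and 0.861% of all genes tested. At an unadjusted p under 0.05 with limma 1 member was lower, against 3.24% of all genes. The comparison had a median log2 fold change of 0.51 for the members and 0.16 for all genes. They were Idi1 (1.41 ± 0.29, limma adjusted p = 0.00559), Mvd (0.89), Abcg5 (0.87), Msmo1 (1.32), Insig1 (1.17), Abcg8 (0.84), Cyp51 (0.99) and Nsdhl (1.03), with log2 fold changes in brackets. Mvd was at 2.21, 2.14 and 1.49 FPKM in T1DC against 0.67, 0.64 and 0.44 in DIOC. Cyp51 was at 12.4, 8.15 and 4.69 FPKM against 3.02, 4.05 and 3.4. Nsdhl was at 8.73, 8.24 and 3.02 FPKM against 2.32, 2.64 and 2.49. Insig1 was at 22.6, 38.5 and 15.8 FPKM against 8.99, 11.4 and 10.1, so that, as in the other 3, T1DC3 lay nearest to the DIO livers. Without T1DC3 the calls rose to 14, and they fell to 1 without T1DC1, 2 without DIOC1, 3 without DIOC2 and 5 without DIOC3. Median-ratio scaling, with a shift of -0.17, left Idi1 and Mvd.

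Under PM 12 members were called higher in T1DE than in DIOE and 0 lower, against 17.6% and 1.38% of all genes tested. At an unadjusted p under 0.05 with limma 1 member was lower, against 2.6% of all genes. The comparison had medians of 0.51 for the members and 0.35 for all genes. Of the 12, 10 were synthesis enzymes, and the others were Abcg5 (0.84) and Abcg8 (0.75). Abcg8 was at 40.0, 37.0 and 39.7 FPKM in T1DE and at 22.0, 24.6 and 21.6 in DIOE. Mvd was at 2.77, 3.03 and 3.63 FPKM in T1DE against 0.81, 0.73 and 0.81 in DIOE (1.21 ± 0.20, limma adjusted p = 0.000448). Idi1 was at 11.4, 15.8 and 13.5 FPKM against 6.13, 3.04 and 2.82 (1.59 ± 0.29, limma adjusted p = 0.000719). Nsdhl was at 6.1, 8.81 and 12.8 FPKM against 3.64, 2.14 and 2.23 (1.45 ± 0.32, limma adjusted p = 0.00221). In these 3 genes the groups were apart in every library. Sqle (1.51), Msmo1 (1.29), Fdps (1.26), Cyp51 (1.09), Lss (0.79), Dhcr7 (0.79) and Fdft1 (0.71) were the other enzymes called higher. Msmo1 was at 13.7, 26.6 and 22.9 FPKM in T1DE, Fdps at 17.9, 31.5 and 35.6, Cyp51 at 8.91, 14.5 and 12.3, Fdft1 at 10.7, 16.2 and 12.9 and Lss at 2.61, 3.18 and 3.43, each above every DIOE value given earlier. Sqle was at 3.46, 5.88 and 5.51 FPKM in T1DE against 2.55, 0.46 and 0.67 in DIOE. Dhcr7, the last reductase of the pathway, was at 9.25, 13.3 and 11.2 FPKM against 6.64, 4.48 and 7.27. Both genes were higher in every T1DE library. For T1DE against DIOE alone, the share of all genes apart in this way was not counted. The 7 members called in both airs were Mvd, Idi1, Cyp51, Msmo1, Nsdhl, Abcg5 and Abcg8, 87.5% of the 8 and 58.3% of the 12, and the share of all genes called in both was not counted. Over both airs 7 members (Mvk, Mvd, Idi1, Lss, Msmo1, Dhcr7 and Abcg5) were lower in all 6 DIO livers than in the 6 T1D livers, against 18.9% of all genes, and 0 were higher, against 0.713%. Median-ratio scaling moved the median of all genes by -0.33 here and gave 3 higher, Idi1, Mvd and Nsdhl, and 1 lower, Soat2.

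The comparison of PM with filtered air asks what the exposure did within each state, and no sterol gene was called in it in liver. PM gave 0 of 30 called members in ND, DIO and T1D livers alike, where 0.00925%, 0% and 0.916% of all genes tested were called. At an unadjusted p under 0.05 with limma, 1 member was higher in ND (Mbtps1, log2 fold change 0.26, 5.34% of all genes at that p), 0 differed in DIO (13.8% of all genes) and 1 was higher in T1D (Mvd, 0.50, 11.8% of all genes). Averaged over the states, where 0.0278% of all genes were called and 11.1% had an unadjusted p under 0.05, Mvd (0.26, 95% confidence interval 0.01 to 0.51) and Ebp (0.17) were the 2 members at that p. Idi1 had an averaged log2 fold change of 0.28 with an interval from -0.07 to 0.64, so a change of that size was not detectable against the spread. Of the 18 synthesis enzymes 16 were positive in this average, with a median of 0.19, and none was called. The share of all genes that were positive is not given here, so this count cannot be judged against it.

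The effect of PM was also compared between the states. No member was called for a difference between DIO and ND livers (0% of all genes called, 5.75% at an unadjusted p under 0.05) or between T1D and ND livers (0.416% and 9.7%), and Mbtps1 was the only member at an unadjusted p under 0.05 with limma in each. Mbtps1 was at 12.6, 12.3 and 11.1 FPKM in NDC, 14.9, 14.1 and 14.7 in NDE, 13, 15.9 and 13.2 in DIOC and 13.8, 14.5 and 13.9 in DIOE, so that the NDC livers were the low ones. No member was apart between the 9 PM and the 9 filtered-air livers in either direction, as for 0% of all genes.

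**Figure D4:**
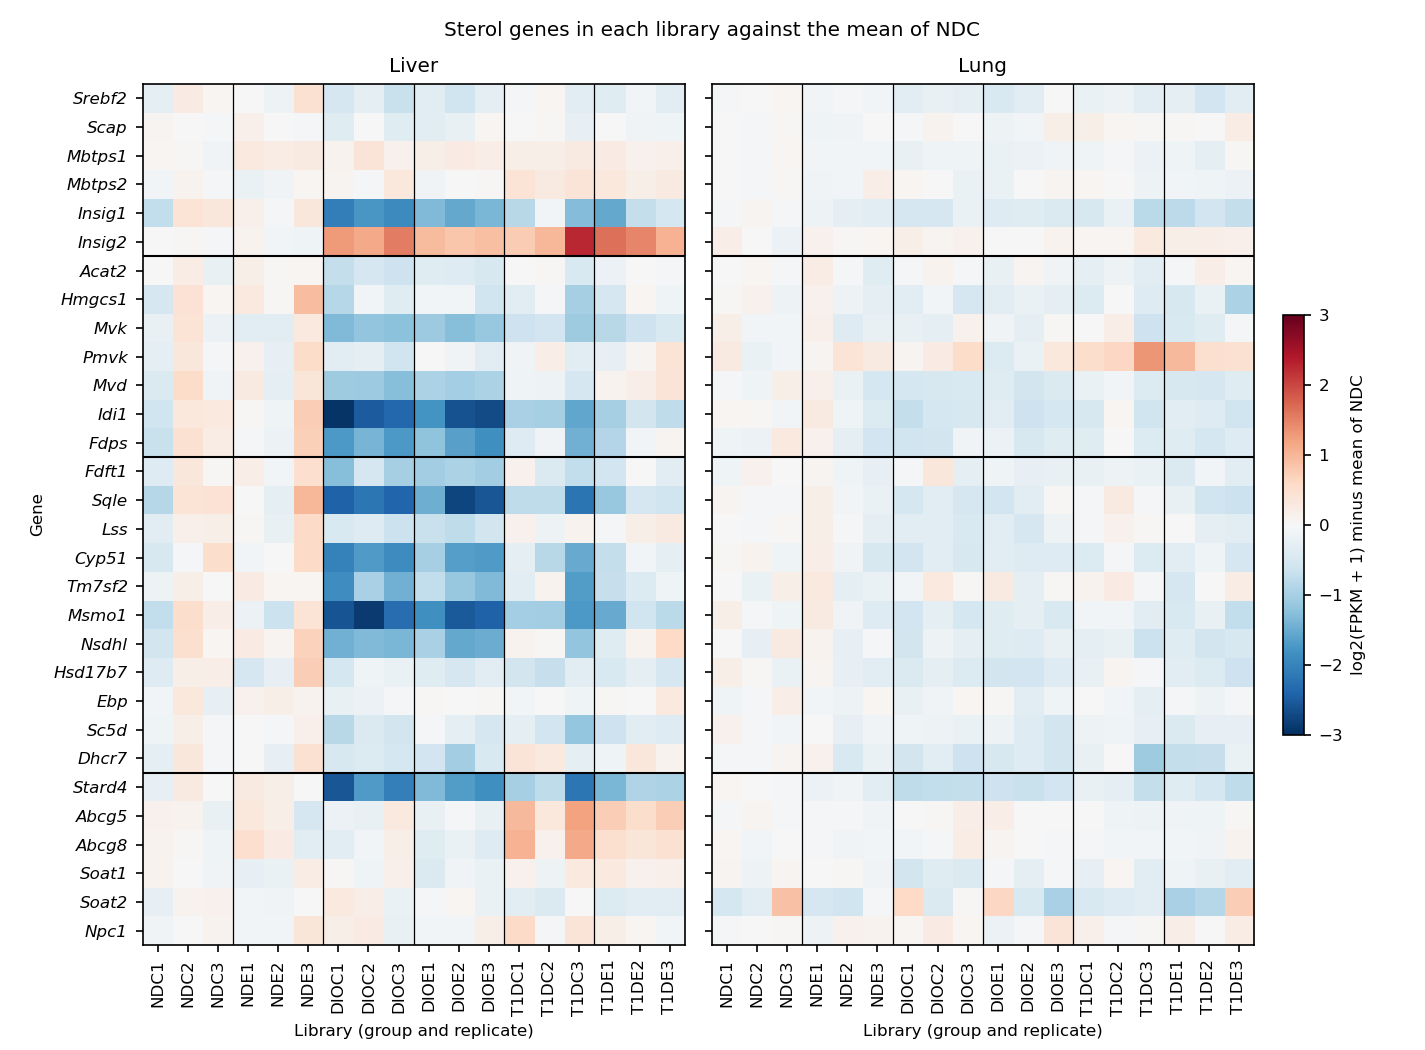
Level of the 30 genes in each of the 36 libraries, as log2(FPKM + 1) minus the mean of NDC of the same tissue, with columns for libraries, rows for genes in the order of their roles, blue for lower and red for higher. The blue block of synthesis enzymes lies in the 6 DIO livers and the red row is Insig2 in DIO and T1D livers, whereas the lung columns are paler.

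In lung few of these genes passed the test between states. In DIOC against NDC 1 of the 28 members tested was called, Stard4, lower, where 0.0429% of all genes tested were called lower and 0.0644% higher. Stard4 was at 9.34, 8.86 and 8.73 FPKM in NDC and at 4.91, 5.01 and 5.05 FPKM in DIOC, far apart beside the spread within each group (log2 fold change -0.74 ± 0.12, 1.67-fold, limma adjusted p = 0.0338). With Stard4, 14 members were lower at an unadjusted p under 0.05, against 7.4% of all genes, and 0 were higher. Among them were Soat1 (-0.45), Mvd (-0.49), Idi1 (-0.58), Insig1 (-0.41), Sqle (-0.46) and Msmo1 (-0.47). The median over the members was -0.29 against -0.03 for all genes tested. The call of Stard4 was lost on leaving out any of DIOC1, DIOC2, NDC1, NDC2 and NDC3, which left 0 calls, while its level stayed apart in every library. Clock genes moved here too, with 3 of 12 called higher and 4 lower and Dbp at a log2 fold change of -3.38, and their part was not tested.

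Under PM, Stard4 was at 7.85, 8.23 and 6.98 FPKM in NDE lung and 5.48, 5.25 and 5.65 in DIOE (log2 fold change -0.43 ± 0.12, limma adjusted p = 0.686), so that it was not called although the groups did not overlap. In this comparison 0.00716% of all genes were called higher and 0.0215% lower, 0 of the 28 members were called, and 5 members were at an unadjusted p under 0.05 (4.91% of all genes), all lower. Squamous markers summed to 1.83 to 5.35 FPKM in NDE and 639 to 1838 FPKM in DIOE and muscle markers to 14.6 to 61.9 and 510.3 to 1614 FPKM, with 0 called, and their part was not tested. Over both airs Mbtps1 and Stard4 were lower in all 6 DIO lungs than in the 6 ND lungs (0.766% of all genes tested), and 0 were higher (0.429%). Mbtps1 was at 34.4 to 37.4 FPKM in NDC and 33.9 to 34.1 in NDE, and at 30.8 to 32.9 in DIOC and 31.3 to 33.5 in DIOE.

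T1D lungs gave 0 called members in either air, with 0.0787% of all genes called higher and 0.0286% lower in filtered air, and 0.179% and 0.107% under PM. At an unadjusted p under 0.05 with limma there were 1 higher and 4 lower members in filtered air (12.5% of all genes) and 0 higher and 8 lower under PM (12.7%). Insig1 (-0.49 and -0.44), Stard4 (-0.41 and -0.35), Nsdhl (-0.39 and -0.40) and Srebf2 (-0.22 and -0.33) were lower at that p in both airs. Pmvk, phosphomevalonate kinase, was at 38.3, 27.1 and 29.5 FPKM in NDC lung and at 45.9, 48.6 and 79.5 FPKM in T1DC lung. It was higher in all 6 T1D lungs than in any ND lung (1.23% of all genes were so), and Srebf2 was lower in all of them (0.644%). Without T1DC2 the count of called members in T1DC against NDC was 1. Other genes moved with T1D in these lungs. Of 12 clock genes 2 were called higher and 3 lower in each air, and Dbp went from 27.0, 53.6 and 51.4 FPKM in NDC to 6.5, 2.28 and 3.52 FPKM in T1DC (log2 fold change -3.16). All 7 lymphocyte markers were lower in T1DC at an unadjusted p under 0.05 with limma, 0 of them called, and their sum was 193.8 to 286 FPKM in NDC and 39.5 to 165 FPKM in T1DC. Markers of squamous epithelium summed to 1.09 to 631 FPKM in NDC and 725 to 1501 FPKM in T1DC, with 0 called. The part of these in the sterol values was not tested.

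T1D against DIO in lung gave 0 called members, with 0.0215% of all genes called higher and 0.00716% lower in filtered air and 0.386% and 0.157% under PM. At an unadjusted p under 0.05 with limma there were 6 higher members in filtered air (8.19% of all genes), Pmvk, Sqle, Lss, Hsd17b7, Stard4 and Soat1, and 1 higher and 1 lower under PM (18.1%), Pmvk and Insig1. Sqle, for example, was at 17.6, 22.3 and 18.1 FPKM in T1DC lung and at 12.6, 14.3 and 12.6 in DIOC lung. No member was apart between the 6 DIO and the 6 T1D lungs (1.55% of all genes lower and 0.308% higher in DIO).

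For PM against filtered air in lung 0 members were called in ND, DIO and T1D, where 0%, 0% and 0.165% of all genes were called. At an unadjusted p under 0.05 with limma there were 0 members in ND (1.65% of all genes), 1 in DIO (Soat1, log2 fold change 0.33, 2.5% of all genes) and 3 in T1D (Acat2 0.32, Sqle -0.54 and Hsd17b7 -0.38, 11.8% of all genes). Averaged over the states 0 members were called (0% of all genes), with Hsd17b7 (-0.22) and Sc5d (-0.15) at an unadjusted p under 0.05 (6.13% of all genes). Differences of the PM effect between states gave 0 called members for DIO against ND (0% of all genes called, 1.92% at an unadjusted p under 0.05) and for T1D against ND (0.00716% and 6.05%). Soat1 in the first, and Acat2 and Sqle in the second, were the members at that unadjusted p. No member was apart between the 9 PM and the 9 filtered-air lungs, as for 0% of all genes.

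Whether the liver changed more than the lung was tested as the difference of the log2 fold changes in the joint fit of both tissues, a test added after the data were seen. For DIOC against NDC, Idi1 (liver minus lung -2.02, limma adjusted p = 0.00733) and Msmo1 (-2.12, limma adjusted p = 0.0101) fell more in liver, where 0.216% of all genes were called so. In lung Idi1 went from 30.5, 29.9 and 27.7 FPKM in NDC to 17.5, 20.0 and 20.7 FPKM in DIOC, and Msmo1 from 35.0, 30.1 and 28.4 FPKM to 20.7, 25.0 and 21.2 FPKM. Neither passed the test in lung (log2 fold change -0.58 and -0.47). Under PM only Idi1 was called (-2.17, limma adjusted p = 0.00965), against 0.0487% of all genes. For T1DC against NDC, Insig2 (1.20, limma adjusted p = 0.0254) rose more in liver, where 1.95% of all genes were called so, and under PM Insig2 was called again (1.32, limma adjusted p = 0.00722), against 5.02%. Lung Insig2 lay between 16.5 and 23.3 FPKM over all 18 libraries.

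**Figure D5:**
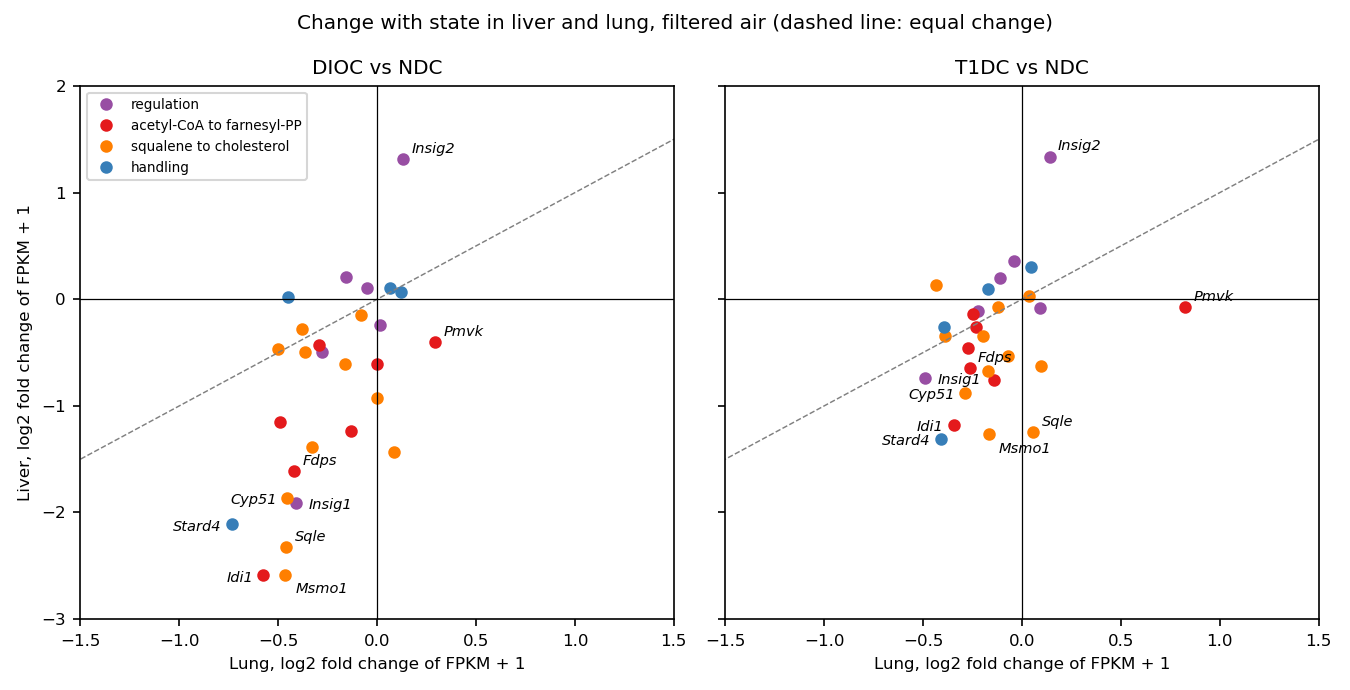
Log2 fold change of FPKM + 1 in liver (vertical) against lung (horizontal) for the 28 genes tested in both, DIOC against NDC (left) and T1DC against NDC (right), colored by role, with a dashed line of equal change. Idi1, Msmo1, Sqle and Stard4 lie far below the line in DIO, and Insig2 lies above it in both panels.

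Genes of the wider sterol network that are not among the 30 were counted in the same fit. Of 10 other genes of synthesis, uptake and SREBP-driven lipid synthesis, 5 were called lower in DIOC livers and 0 higher, among them the fatty acid desaturase Fads2 (log2 fold change -0.60, limma adjusted p = 0.0394) and the elongase Elovl6 (-0.91, limma adjusted p = 0.0495), where 0.842% of all genes were called lower. Elovl6 was at 9.41, 8.46 and 8.9 FPKM in NDC liver and at 3.77, 4.27 and 4.89 in DIOC. Of the 10, 2 were called lower in DIOE (0.666% of all genes) and 0 in either direction in T1D livers of either air. Of 8 other genes of LXR-driven efflux, 0 were called in DIOC and T1DC livers. Pltp, a phospholipid transfer protein, was called lower in DIOE (-1.27, limma adjusted p = 0.0207). Calls of this list in T1DE are not given here. There Pltp was at 21.2, 23.8 and 26.7 FPKM against 42.0, 35.1 and 64.7 in NDE. Abcg1, of the same list, was at 3.56, 3.16 and 3.61 FPKM in T1DE against 1.53, 1.66 and 2.27 in NDE. Of 7 genes of bile acid synthesis, its regulation and bile acid export, 0 were called in DIO or T1D livers against ND. In T1DC against DIOC 4 of the 10 genes of synthesis and uptake were called higher (5.74% of all genes) and 0 lower, among them Tmem97, a sterol-regulated membrane protein, at 52.8, 36.5 and 40.8 FPKM in T1DC and 24.3, 28.6 and 31.0 in DIOC.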

How the data were processed

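RNA from lung and liver was sequenced by the authors on BGISEQ-500, filtered with SOAPnuke, mapped with Bowtie2 to GRCm38 and quantified with RSEM. The deposited values are FPKM that the authors obtained from RSEM for each gene and library, with 2 decimals. The sources used here give no tool versions, no strandedness and no annotation release. FPKM is relative to the library total, so a few very abundant genes can shift all others.

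Groups were taken from the sample labels. From the deposited FPKM, log2(FPKM + 1) was computed, and a gene entered the test in a tissue when 3 or more of its libraries reached 1 FPKM, which left 13973 genes in lung and 10806 in liver. A model with 6 group means over 18 libraries per tissue was fitted with limma 3.58.1 (lmFit, contrasts.fit, eBayes with trend) in R 4.3.3, so that the groups share an estimate of spread. Lung was compared with liver in a joint fit of 36 libraries and 14384 genes. The labels do not settle whether lung and liver libraries came from the same mice, and the joint fit treats all 36 as independent. Tests are two-sided with Benjamini-Hochberg adjustment per comparison over all genes tested, and a call needs an adjusted p under 0.05 and a fold of FPKM + 1 over 1.5. That fold understates the change of low genes. An exact permutation test of 3 libraries against 3 could not go below p = 0.1. Shares of all genes without overlap were counted for states over both airs and for PM against filtered air over all states. They were not counted for 3 libraries against 3. All 30 members matched the RefSeq annotation of GRCm38.p6, from which coordinates and windows were read, and 6 of them overlap another protein-coding gene. Values in every library are given for members called in a comparison, for the 12 with the smallest adjusted p where more were called, and for members on which the comparison of the tissues turns. Other sterol genes are counted and named up to 4 per comparison. Members and lists were chosen with earlier results of these data known. The settings varied were the pseudocount (0.1), the filter (left out), the scaling (median-ratio), the libraries fitted (compared groups alone, or each library left out) and a replicate block. Summaries and figures used Python 3.11.15. Some genes of the wider sterol lists are counted here and not named.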

Additional observations from a re-analysis of the deposited data

Results flagged for a closer look

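Of the 6 results given here 5 differed between the tissues by the test of the difference itself, liver minus lung in log2 fold change, a test added after the data were seen. In DIOC against NDC these were Idi1 at -2.02 and Msmo1 at -2.12, and in DIOE against NDE Idi1 at -2.17. In T1DC against NDC this was Insig2 at 1.20, and in T1DE against NDE Insig2 at 1.32. Idi1 in both airs and Insig2 under PM were called under all 17 alternatives. Msmo1 was lost when the compared groups were fitted alone (limma adjusted p = 0.0602) and Insig2 in T1DC was lost under 7 alternatives. Abcg5 in T1DC against NDC also passed, at 0.92, but it lay under 1 FPKM in every lung library, so the value restates the liver contrast and is no test between the tissues, and it was lost under 13 alternatives.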

How the results depend on the processing

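Counts of members called in liver changed as follows. Without a filter on low values they were 7 in DIOC against NDC (13 in the reported analysis), 3 in DIOE against NDE (12), 4 in T1DC against NDC (8) and 4 in T1DC against DIOC (8). Median-ratio scaling gave 8 in T1DE against NDE (5), 2 in T1DC against DIOC and 4 in T1DE against DIOE (12). Fitting the compared groups alone gave 0 in T1DC against NDC, 3 in T1DC against DIOC and 0 for lung DIOC against NDC (1). Leaving out single libraries gave ranges of 7 to 12 for DIOC against NDC, 3 to 12 for DIOE against NDE, 2 to 11 for T1DC against NDC, 2 to 6 for T1DE against NDE, 1 to 14 for T1DC against DIOC, 11 to 13 for T1DE against DIOE and 17 to 19 for lung against liver. In lung the range was 0 to 1 for DIOC against NDC and 0 to 1 for T1DC against NDC. The tissue differences (liver minus lung) gave 2 to 5 for DIOC, 1 to 3 for DIOE, 0 to 4 for T1DC and 1 to 2 for T1DE on leaving out libraries. With median-ratio scaling they gave 5 for DIOC and 0 for T1DC, with the compared groups alone 8 for DIOE, 0 for T1DC and 2 for T1DE, with the pseudocount of 0.1 1 for T1DC and 2 for T1DE, and without a filter 1 for T1DC. Mvk, higher in lung than in liver at 0.65, turned to -0.19 with median-ratio scaling. The causes were not tested.

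Deviations of same-numbered libraries correlated from -0.600 to 0.758 in lung and -0.275 to 0.270 in liver, and 7 and 8 of 18 libraries were nearest to their own number. These values pool all pairs of groups in a tissue. The paper states that mice of each state were matched in pairs by body weight before the random division into groups. The labels do not say whether replicate numbers follow that matching. A pairing of control with exposed libraries within a state was not tested separately. With a replicate block the counts were 12 in DIOC against NDC, 12 in DIOE against NDE, 7 in T1DC against NDC, 5 in T1DE against NDE, 6 in T1DC against DIOC, 12 in T1DE against DIOE, 1 for lung DIOC against NDC, 18 for lung against liver and 4 for the tissue difference in DIOC. With 3 libraries a group, a small change such as that of Pmvk or Hmgcs1 in liver could not be told from the spread, and genes near 1 FPKM, such as Sqle and Mvd in DIO livers, rest on few fragments.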

Other observations

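Soat2, a cholesterol-esterifying enzyme of liver and intestine, was low in lung but uneven among replicates. It was at 1.18, 1.47 and 4.75 FPKM in NDC lung, at 3.82, 1.27 and 0.61 in DIOE lung and at 0.59, 0.74 and 4.2 in T1DE lung, so that single libraries stood above the others of their group. In liver it lay between 8.11 and 14.1 FPKM over all 18 libraries.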
